A study of Homo sapiens with 15 samples.

Results

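Interferon-stimulated genes are the genes that cells switch on when an interferon reaches them, and 47 of them were followed here in a breast cancer cell line in which estrogen receptor beta (ERβ, gene ESR2) was removed, put back and activated. They were chosen by symbol (DDX58 is the older symbol of RIGI), with earlier results of these data known. All 47 were among the 60664 genes of the count table. A filter on low counts left 43 of them among 19516 genes tested, and IFITM1, XAF1, EPSTI1 and TRIM22 fell under it.

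Interferons bind receptors at the cell surface, and the kinases JAK1, TYK2 and, for interferon gamma, JAK2 then phosphorylate STAT proteins. A complex that holds STAT2 and IRF9 binds the interferon-stimulated response element (ISRE) in the promoters of these genes, and interferon gamma acts through another element, the gamma-activated site (GAS). The products sense viral RNA, block translation, entry or release of viruses, tag proteins with ISG15, or feed back on the pathway. Tumour cells can express them without added interferon, and no group here was given one.

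The cells were KPL4, an established human breast adenocarcinoma line with amplified ERBB2 (HER2). Each of 5 groups had 3 libraries. Control cells carried their own ERβ. Knockout cells lacked it according to their label, and add-back cells were the knockout transfected with exogenous ERβ. Those 3 groups are given without a treatment, and the maintenance medium was Ham's F12 with 7% fetal bovine serum, insulin and hydrocortisone. Vehicle and LY500307 libraries both came from add-back cells kept 72 hours in medium without phenol red and with 1% charcoal-treated serum, then 24 hours in the same medium with DMSO or with 200 nM LY500307, an ERβ agonist. The sources used here do not say whether the knockout was 1 clone, what drives the exogenous receptor, or whether replicates were separate cultures, so p-values measure the spread between these libraries, which may be technical. Vehicle against add-back changes serum, phenol red, time and DMSO together, and these cannot be told apart. Whether the vehicle medium also held insulin and hydrocortisone is not stated here, so a change in these could not be told apart either.

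The questions the design poses of these genes are how they differ without ERβ, with ERβ put back, and after 24 hours of its agonist. To show what the members share in sequence, the stretches below are RefSeq promoter sequence (GRCh38.p14), written 5′ to 3′ on the strand of the gene, with the ISRE core in capitals: GAAA, any 2 bases and GAAA again, searched on both strands (so that it also reads TTTC, any 2 bases, TTTC). Overlapping cores run together. They were picked to show members that went different ways in the comparisons that follow.
IFIT1 chr10:89392482-89392545 (+): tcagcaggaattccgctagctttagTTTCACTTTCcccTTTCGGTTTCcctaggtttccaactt
ISG15 chr1:1013359-1013422 (+): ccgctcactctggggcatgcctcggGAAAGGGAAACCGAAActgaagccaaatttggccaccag
HERC5 chr4:88456969-88457079 (+): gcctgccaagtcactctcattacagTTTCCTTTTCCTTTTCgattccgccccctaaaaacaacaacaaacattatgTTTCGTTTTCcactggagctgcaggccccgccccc
IFI6 chr1:27672251-27672373 (-): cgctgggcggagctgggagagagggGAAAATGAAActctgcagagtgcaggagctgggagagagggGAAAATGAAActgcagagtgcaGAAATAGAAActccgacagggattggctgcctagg
RSAD2 chr2:6877607-6877664 (+): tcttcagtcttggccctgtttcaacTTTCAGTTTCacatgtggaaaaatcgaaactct
SAMD9 chr7:93118081-93118140 (-): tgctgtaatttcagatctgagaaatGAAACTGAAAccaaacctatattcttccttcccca

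Promoter windows from 250 bases before to 50 bases after the start site were at hand for 38 of the 47 genes, and 27 of those (71.1%) held an ISRE core in at least 1 window, against 1195 of all 27305 genes with a window (4.38%). GAS letters (TTC and GAA with any 3 bases between) stood in 11 of the 38 (28.9%), against 9.38% of all genes. An estrogen response element (GGTCA and TGACC with any 3 bases between) was in 0 of the 49 windows of the members and in 20 of all 35116 windows (0.057%). A match describes letters in these windows and is no measured binding site. Each printed stretch stands upstream of a RefSeq start site. Those of RSAD2 and ISG15 lie inside the gene spans given below. The other RSAD2 window, with its start site at 6865885, held 0 ISRE cores. The genes went different ways in the counts. IFI6 and RSAD2 rose both in the knockout and with vehicle medium. ISG15 and HERC5 rose in the knockout and fell with vehicle medium, and SAMD9 did the reverse. The vehicle fall of ISG15 did not hold with offsets for GC content and length (-0.14). The knockout rise of HERC5 did not pass in DESeq2 (adjusted p = 0.0917) or without the filter on low counts (edgeR adjusted p = 0.0529).

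Depth ran from 12614050 to 19390386 expected counts per library. The targeted gene, ESR2 (chr14:64084232-64338112, minus strand), gave 6.44, 4.79 and 6.07 CPM in control, 5.77, 3.04 and 4.41 in knockout, 34.1, 33.8 and 30.6 in add-back, 41.7, 45.9 and 48.03 in vehicle and 45.04, 44.2 and 42.4 in LY500307 libraries. Its RNA differed by -0.38 ± 0.17 (edgeR adjusted p = 0.0796) between knockout and control, so the counts do not by themselves show the knockout, and an edited gene can keep its RNA. It rose in add-back cells against knockout by 2.89 ± 0.12 (edgeR adjusted p = 4.54e-12). The epithelial markers EPCAM, KRT8, KRT18, KRT19 and ERBB2 were all expressed. Summed immune cell markers (PTPRC, CD3E, CD14, CD79A, LYZ) were at 0.530 to 0.758 CPM in control and 1.14 to 1.41 in knockout libraries, without overlap, and between 0.259 and 1.64 CPM over all libraries. None of these 5 genes passed 14 counts in a library, and their part in the knockout results was not tested. Endothelial markers (PECAM1, VWF, CDH5), at 2.97 to 4.72 CPM in the 3 untreated groups, stood at 10.3 to 12.2 CPM in vehicle and LY500307 libraries. Most of that sum was VWF, with 42, 55 and 42 counts in add-back and 134, 170 and 123 in vehicle libraries. In such bulk RNA a change in the number of cells of a type and a change in RNA per cell cannot be told apart.

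Levels are given as CPM, which are counts divided by the library size after TMM scaling, in the order of replicates 1, 2 and 3. Differences are log2 fold changes ± standard error from edgeR's quasi-likelihood test, and a gene was called higher or lower where its p, adjusted by Benjamini-Hochberg over all 19516 genes (below, "edgeR adjusted p"), was under 0.05.

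**Figure D1:**
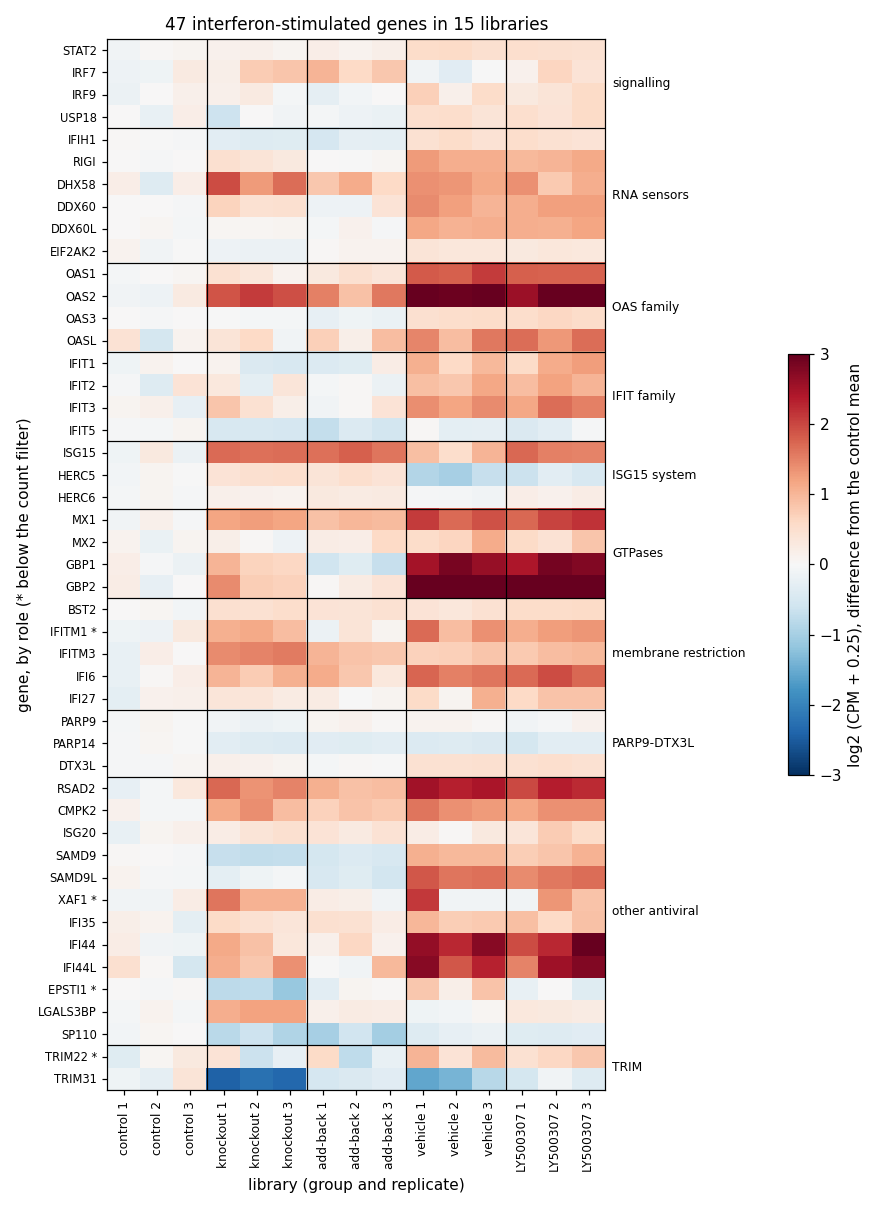
Heat map of the 47 genes (rows, grouped by role) in the 15 libraries (columns). Colour is log2 of CPM + 0.25 minus the mean of the 3 control libraries, red higher and blue lower, cut at 3 in each direction. Vehicle and LY500307 columns are redder than the others in most rows, with HERC5 and TRIM31 among the exceptions.

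In knockout cells 22 of the 43 genes were higher than in control and 7 lower, a share of 67.4% against 46% of all genes tested (23.4% higher and 22.6% lower). Their median log2 fold change was 0.37, and that of all genes -0.0049. The members' lower and upper quartiles were -0.09 and 1.10, and those of all genes with a GC value -0.24 and 0.31. Of the called members that changed at least 2-fold, TRIM31 was the lower one, and OAS2, DHX58, ISG15, RSAD2 and IFITM3 were among the higher ones. IFI44 and IFI44L were too, but on few counts, and both calls were lost without control replicate 2 or 3. Add-back against knockout called 5 higher and 10 lower (34.9%, against 19.6% of all genes, with 10.4% higher and 9.19% lower), with a median of -0.08. Under upper-quartile scaling those counts were 3 and 11, while the higher share of all calls went from 53.1% to 42%. The counts were 6 and 4 without knockout replicate 1, 5 and 6 without add-back replicate 1, and 3 and 12 without knockout replicate 3. DESeq2 did not call DHX58, DDX60, RSAD2 or HERC6 there (adjusted p = 0.0572, 0.0605, 0.0678 and 0.126). Against control, add-back cells had 17 higher and 8 lower (58.1%, against 45.8% of all genes, with 23.2% higher and 22.7% lower) and a median of 0.16. These comparisons share libraries, so their values are given side by side for each gene.

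Vehicle medium went with the broadest rise: against add-back cells, 28 genes were higher and 6 lower (79.1%, against 48.1% of all genes, with 26.4% higher and 21.6% lower). The median was 0.63, against 0.01 over all genes. The members' lower and upper quartiles were 0.13 and 1.18, and those of all genes with a GC value -0.31 and 0.26. LY500307 against vehicle called 5 genes higher and 0 lower (11.6%, against 7.12% of all genes, with 4.77% higher and 2.35% lower), with a median of 0.02. Those 5 were TRIM31, ISG15, LGALS3BP, HERC6 and BST2. Only HERC6 and LGALS3BP of them were called under all 15 alternatives. In TRIM31 the call was lost without vehicle replicate 1 (0.86, edgeR adjusted p = 0.0804), vehicle replicate 2 (0.91, edgeR adjusted p = 0.0919) or LY500307 replicate 2 (0.87, edgeR adjusted p = 0.0758).

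Knockout against control and vehicle against add-back share no library. Of the 22 genes higher in the knockout, 14 were also higher in vehicle, 4 were lower (HERC5, IRF7, ISG15, LGALS3BP) and 4 were not called. Those 14 are 63.6% of the 22, close to the 65.1% of all 43 members that were higher in vehicle. Over all genes tested the same shares were 26.2% and 26.4%. Of the 28 genes higher in vehicle, 5 were lower in the knockout (EIF2AK2, IFIH1, IFIT5, SAMD9, SP110) and 9 were not called there. That last set held STAT2, IRF9, USP18, IFIT1, IFIT2 and IFIT3. TRIM31 was lower in both comparisons. With offsets for GC content and length, the vehicle calls of IRF7 (-0.10), ISG15 (-0.14), LGALS3BP (0.09), EIF2AK2 (0.05) and IFIT5 (0.18) were lost. The knockout calls of IRF7 (-0.21), EIF2AK2 (-0.10) and, of the 14 higher in both, IFI35 (0.27) were lost too. Of the genes that went opposite ways, HERC5, IFIH1, SAMD9 and SP110 kept both calls with the offsets.

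**Figure D2:**
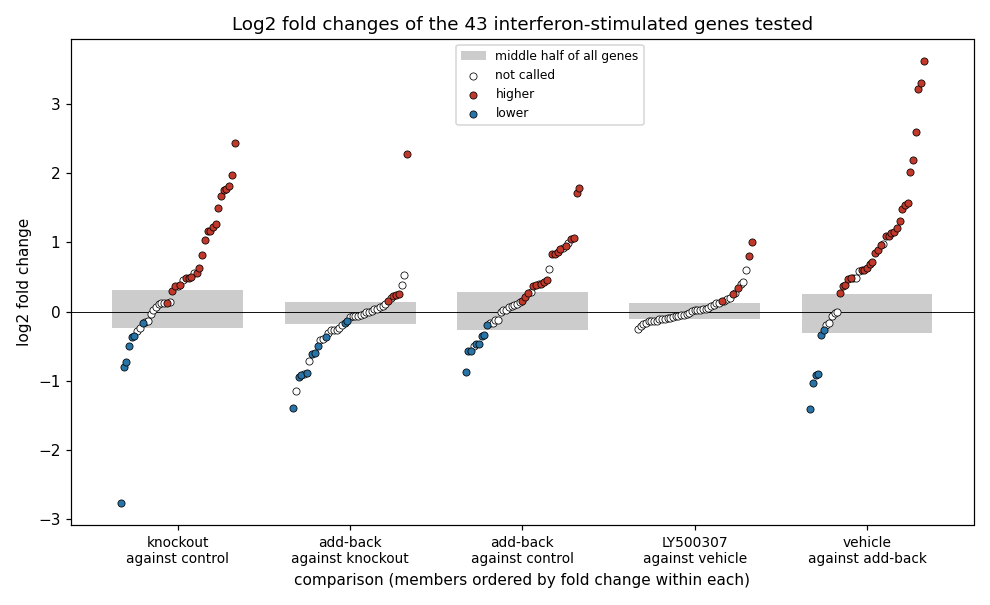
Log2 fold changes of the 43 genes tested (points), ordered by size within each of the 5 comparisons; red points were called higher, blue lower, white not called. Grey bands span the lower to the upper quartile of all genes tested that have a GC value, and in vehicle against add-back the members' upper quartile of 1.18 lies above the band's 0.26.

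Of the 4 signalling genes, IRF7 was the 1 called in the knockout (25%, against 46% of all genes). All 4 were called in vehicle, 3 higher and IRF7 lower (100%, against 48.1% of all genes). Neither IRF7 call held with offsets for GC content and length. STAT2 (chr12:56341597-56360155), a subunit of the ISRE-binding complex, stood at 48.9, 54.1 and 55.98 CPM in control, 58.3, 59.2 and 55.8 in knockout, 60.8, 57.1 and 59.9 in add-back, 78.1, 78.5 and 73.7 in vehicle and 74.97, 73.6 and 72.6 in LY500307 libraries. The 3 untreated groups lay close together and all vehicle and LY500307 libraries lay above them. STAT2 differed by 0.12 ± 0.05 (edgeR adjusted p = 0.0579) in knockout against control and rose by 0.38 ± 0.05 (edgeR adjusted p = 2.29e-06) in vehicle against add-back. It rose by 0.16 ± 0.05 (edgeR adjusted p = 0.0142) in add-back against control, a call lost without control replicate 1 (0.12, edgeR adjusted p = 0.0532). Its change with LY500307 was -0.06 ± 0.05 (edgeR adjusted p = 0.513).

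IRF9 (chr14:24161053-24166565), which gives that complex its DNA binding, measured 5.68, 6.43 and 7.203 CPM in control, 7.12, 7.84 and 6.12 in knockout, 5.24, 6.08 and 6.52 in add-back, 10.6, 7.21 and 9.54 in vehicle and 7.86, 8.396 and 9.68 in LY500307 libraries. Vehicle libraries were all above add-back ones, a rise of 0.61 ± 0.14 (edgeR adjusted p = 0.00182), and no other comparison called it. IRF9 shares 1838 exon bases with a same-strand neighbour that had more reads (226.7 counts on average, against 117 for IRF9), and a pair of retained-intron transcripts took 32.4% and 33.9% of its control counts, so its value is uncertain.

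USP18 (chr22:18149899-18177397), which removes ISG15 from proteins and restrains the interferon receptor, was at 9.47, 8.001 and 10.7 CPM in control, 5.99, 9.36 and 8.695 in knockout, 8.86, 8.397 and 8.05 in add-back, 13.4, 13.6 and 12.2 in vehicle and 13.4, 12.5 and 14.1 in LY500307 libraries. It rose in vehicle by 0.63 ± 0.12 (edgeR adjusted p = 0.000275) and was not called in the knockout (-0.23 ± 0.13, edgeR adjusted p = 0.176). In knockout cells 1 library of the 3 lay below all control libraries, and the others lay within the control range.

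IRF7 (chr11:612553-615999), a factor that induces interferon genes, gave 2.4999, 2.57 and 3.48 CPM in control, 3.21, 4.95 and 5.21 in knockout, 6.02, 4.36 and 5.11 in add-back, 2.61, 2.19 and 2.79 in vehicle and 3.11, 4.53 and 3.82 in LY500307 libraries. Knockout and control libraries overlapped, and add-back libraries lay above all of control and vehicle. It rose by 0.64 ± 0.21 (edgeR adjusted p = 0.0179) in knockout and 0.84 ± 0.20 (edgeR adjusted p = 0.00215) in add-back against control, and fell in vehicle (-1.03 ± 0.20, edgeR adjusted p = 0.000312). Its transcripts are 66.7% GC, and once offsets for GC content and length were added the 3 values were -0.21, -0.04 and -0.10, none of them called. The 40 tested genes nearest to IRF7 had a median of 0.54 in knockout against control, with 6 below 0. The knockout call was also lost without control replicate 1 (0.55, edgeR adjusted p = 0.0714) or 2 (0.56, edgeR adjusted p = 0.0686), or knockout replicate 2 (0.57, edgeR adjusted p = 0.0663) or 3 (0.50, edgeR adjusted p = 0.105).

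The 3 genes of the ISG15 system were all lower in vehicle medium, where 21.6% of all genes were lower. With the offsets for GC content and length, ISG15 itself was not called there. ISG15 (chr1:1001138-1014540) is a ubiquitin-like protein that is attached to other proteins, and its level was 1.97, 2.71 and 1.895 CPM in control, 7.55, 7.31 and 7.53 in knockout, 7.38, 8.12 and 7.09 in add-back, 4.25, 3.26 and 4.63 in vehicle and 7.75, 6.64 and 6.52 in LY500307 libraries. Control libraries were the lowest, knockout and add-back libraries overlapped, and vehicle lay between. It rose by 1.77 ± 0.16 (edgeR adjusted p = 2.84e-08) in knockout, was not called on add-back (0.01 ± 0.13, edgeR adjusted p = 0.955), and was higher in add-back than in control by 1.78 ± 0.16 (edgeR adjusted p = 2.75e-08). It was lower in vehicle against add-back, at -0.91 ± 0.14 (edgeR adjusted p = 1.66e-05), and was higher with LY500307 than with vehicle, without overlap, by 0.80 ± 0.14 (edgeR adjusted p = 0.00271). ISG15 transcripts are 64.2% GC, and its 40 nearest tested genes had a median of 0.42 in the knockout, 8 of them below 0. With the offsets the knockout rise of ISG15 was 1.23 and still called, while the vehicle fall (-0.14, edgeR adjusted p = 0.412) and the LY500307 rise (0.50, edgeR adjusted p = 0.0591) were not called.

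HERC5 (chr4:88457117-88506163) is the ligase that joins ISG15 to targets and stood at 3.03, 3.43 and 3.22 CPM in control, 4.35, 4.57 and 4.72 in knockout, 4.27, 4.696 and 4.34 in add-back, 1.63, 1.49 and 1.91 in vehicle and 1.98, 2.54 and 2.23 in LY500307 libraries. The knockout and add-back libraries lay above control, and vehicle and LY500307 libraries lay below it. HERC5 rose by 0.49 ± 0.14 (edgeR adjusted p = 0.00731) in knockout, a call not made by DESeq2 (0.49, adjusted p = 0.0917) or without the filter on low counts (0.49, edgeR adjusted p = 0.0529), and fell in vehicle (-1.41 ± 0.15, edgeR adjusted p = 2.93e-07). The vehicle fall did not shrink with the offsets (-1.58). HERC6 (chr4:88378739-88443111), a related gene next to it, read 25.5, 27.9 and 25.97 CPM in control, 29.2, 29.1 and 28.3 in knockout, 32.4, 31.6 and 32.1 in add-back, 25.8, 25.2 and 24.7 in vehicle and 30.2, 29.1 and 30.7 in LY500307 libraries. It changed by -0.34 ± 0.05 (edgeR adjusted p = 9.37e-06) in vehicle and by 0.25 ± 0.05 (edgeR adjusted p = 0.00567) with LY500307, where the libraries did not overlap. It was higher in add-back than in knockout by 0.15 ± 0.05 (edgeR adjusted p = 0.0379), which upper-quartile scaling (0.12, edgeR adjusted p = 0.112) and leaving out knockout replicate 3 (0.15, edgeR adjusted p = 0.088), add-back replicate 1 (0.16, edgeR adjusted p = 0.05) or add-back replicate 3 (0.16, edgeR adjusted p = 0.0533) undid.

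The oligoadenylate synthetases detect foreign RNA and activate RNase L. OAS1 (chr12:112906777-112933222) had 11.6, 12.3 and 12.6 CPM in control, 16.7, 15.4 and 13.1 in knockout, 14.9, 16.96 and 15.7 in add-back, 44.2, 42.98 and 52.4 in vehicle and 42.4, 42.1 and 42.3 in LY500307 libraries. Vehicle and LY500307 levels were the highest by a wide gap, a rise of 1.55 ± 0.08 (edgeR adjusted p = 1.02e-11) against add-back. In the knockout it rose by 0.30 ± 0.10 (edgeR adjusted p = 0.0211), which was lost without control replicate 1 (0.27, edgeR adjusted p = 0.0812), control replicate 2 (0.31, edgeR adjusted p = 0.0516), knockout replicate 1 (0.23, edgeR adjusted p = 0.122) or knockout replicate 2 (0.28, edgeR adjusted p = 0.0652). OAS2 (chr12:112978395-113011723), at 0.379, 0.357 and 0.569 CPM in control, 2.28, 2.66 and 2.33 in knockout, 1.68, 0.994 and 1.79 in add-back, 6.53, 4.97 and 6.47 in vehicle and 3.79, 5.38 and 6.81 in LY500307 libraries, had the largest rise of the 43 members tested in the knockout, 2.43 ± 0.35 (edgeR adjusted p = 1.26e-05). It also rose in vehicle (2.01 ± 0.23, edgeR adjusted p = 6.59e-07), and its control level rested on 5, 5 and 9 counts. OAS3 was not called in the knockout (-0.04; with the offsets -0.18, edgeR adjusted p = 0.000994), was lower in add-back than in knockout (-0.16, lost without the filter on low counts, without knockout replicate 1 and without add-back replicates 1 or 3, edgeR adjusted p = 0.0673 to 0.0898) and rose in vehicle (0.72), and OASL was called in no comparison.

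Among the sensors of viral RNA, DHX58, which tunes RIGI and IFIH1 (MDA5), read 0.758, 0.429 and 0.758 CPM in control, 3.21, 1.903 and 2.57 in knockout, 1.29, 1.66 and 1.09 in add-back, 2.02, 1.98 and 1.703 in vehicle and 2.04, 1.27 and 1.64 in LY500307 libraries. All knockout libraries lay above all others but vehicle replicates 1 and 2 and LY500307 replicate 1, which exceeded the lowest of them. DHX58 rose by 1.97 ± 0.29 (edgeR adjusted p = 1.55e-05) in knockout and was lower in add-back, at -0.92 ± 0.25 (edgeR adjusted p = 0.0129), a call lost without knockout replicate 1 (-0.72, edgeR adjusted p = 0.0858) or add-back replicate 3 (-0.77, edgeR adjusted p = 0.0662). Its rise in add-back against control (1.05) was lost without control replicate 2 (0.84, edgeR adjusted p = 0.0535) or add-back replicate 2 (0.88, edgeR adjusted p = 0.0567). RIGI rose by 0.39 in knockout, was lower in add-back (-0.37) and rose by 1.15 in vehicle. IFIH1 went the other way in the knockout (-0.36) and rose by 0.85 in vehicle. EIF2AK2 (PKR), the kinase that halts translation, stood at 193, 165 and 178 CPM in control, 161, 159 and 159 in knockout, 183, 191 and 193 in add-back, 233, 225 and 226 in vehicle and 219.8, 226 and 223 in LY500307 libraries. It was lower in knockout (-0.16 ± 0.04, edgeR adjusted p = 0.00483), higher in add-back against knockout (0.25 ± 0.04, edgeR adjusted p = 0.000452) and higher in vehicle (0.27 ± 0.04, edgeR adjusted p = 3.38e-05). The offsets ended the calls in knockout (-0.10, adjusted p = 0.0593) and vehicle (0.05, adjusted p = 0.382). DDX60 and DDX60L rose in vehicle by 1.21 and 1.10. DDX60 was also higher in knockout (0.56) and lower in add-back against knockout (-0.50), the latter lost without knockout replicate 1 (-0.42, edgeR adjusted p = 0.102), add-back replicate 1 (-0.38, edgeR adjusted p = 0.108) or add-back replicate 2 (-0.38, edgeR adjusted p = 0.136).

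**Figure D3:**
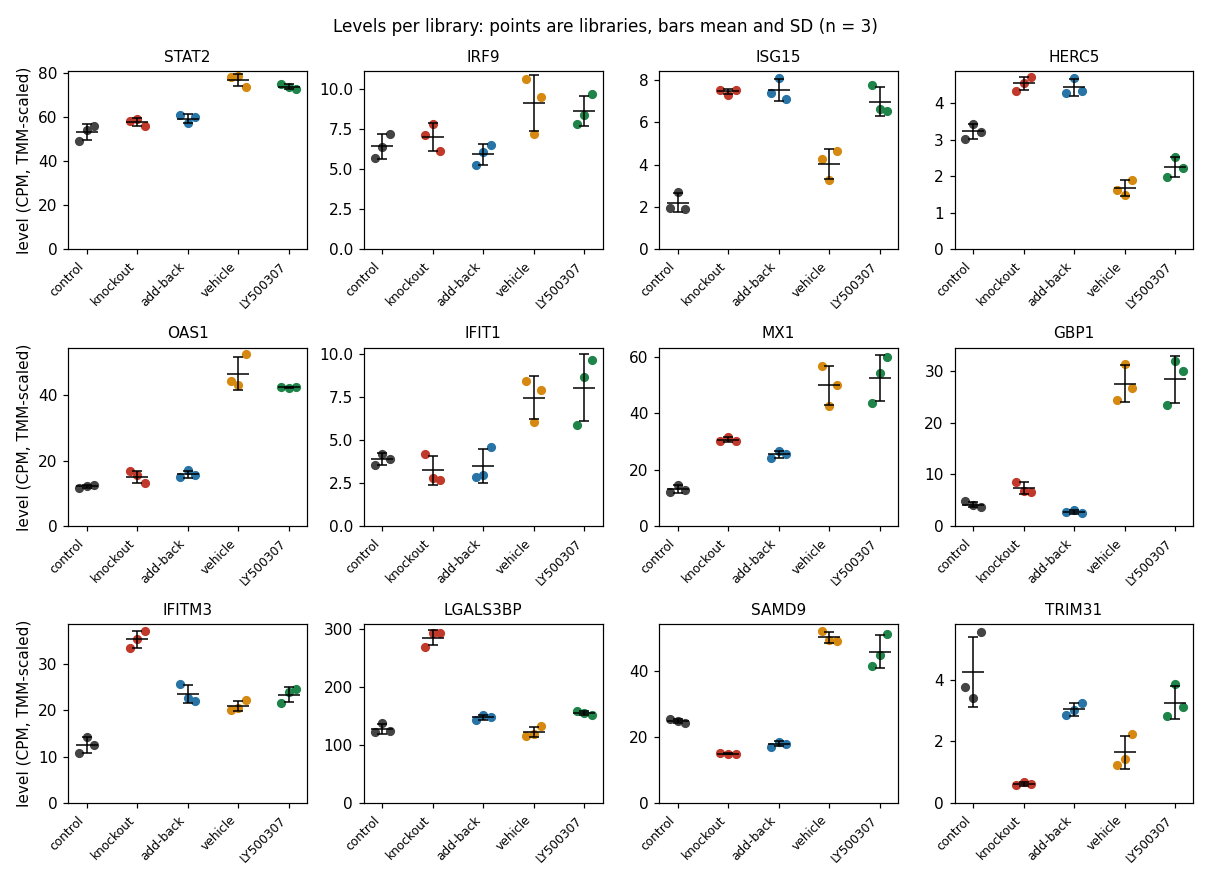
Levels of 12 of the genes in CPM (y axis, from 0) in each group (x axis). Points are libraries and bars the mean and SD of 3. GBP1 in vehicle lies between 24.4 and 31.4 CPM against 2.49 to 3.15 in add-back, while ISG15 and HERC5 in vehicle lie under their add-back libraries.

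Of the 4 IFIT genes, whose proteins bind viral RNA, none was called higher and 1 lower in the knockout (25%, against 46% of all genes). IFIT3 (0.56) was called higher there with the offsets (0.60, edgeR adjusted p = 0.0459). IFIT1 (chr10:89392546-89406486) gave 3.56, 4.21 and 3.92 CPM in control, 4.204, 2.82 and 2.69 in knockout, 2.85, 2.98 and 4.599 in add-back, 8.43, 6.03 and 7.902 in vehicle and 5.88, 8.64 and 9.63 in LY500307 libraries. Knockout and control overlapped (-0.27 ± 0.24, edgeR adjusted p = 0.39), while every vehicle library lay above every add-back one, a rise of 1.09 ± 0.21 (edgeR adjusted p = 0.000252). LY500307 libraries spanned the vehicle range (0.12 ± 0.19, edgeR adjusted p = 0.779). IFIT2 and IFIT3 rose in vehicle by 1.14 and 1.31. IFIT2 shares 65 exon bases with LIPA on the other strand, which had 1009 counts on average against 37.3. IFIT5, at 16.97, 16.5 and 18.4 CPM in control, 12.3, 12.4 and 12.1 in knockout, 10.4, 12.9 and 11.7 in add-back, 17.7, 13.9 and 14.2 in vehicle and 12.7, 13.7 and 16.8 in LY500307 libraries, was lower in knockout (-0.50 ± 0.11, edgeR adjusted p = 0.00109) and in add-back (-0.57 ± 0.11, edgeR adjusted p = 0.000307) than in control. Its rise in vehicle, 0.38 ± 0.11 (edgeR adjusted p = 0.00727), was lost with the offsets (0.18, adjusted p = 0.167) and without add-back replicate 1 (0.28, edgeR adjusted p = 0.0693) or vehicle replicate 1 (0.24, edgeR adjusted p = 0.0955).

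The GTPases held the largest rises in vehicle medium. GBP1 (chr1:89052319-89065360), a guanylate-binding protein that interferon gamma induces strongly, measured 4.77, 4.07 and 3.66 CPM in control, 8.62, 6.77 and 6.55 in knockout, 2.65, 3.15 and 2.49 in add-back, 24.4, 31.4 and 26.8 in vehicle and 23.4, 32.1 and 30.1 in LY500307 libraries. Its levels in add-back were the lowest, under both control and knockout. GBP1 rose by 0.82 ± 0.19 (edgeR adjusted p = 0.00132) in knockout, was lower in add-back against knockout, at -1.39 ± 0.20 (edgeR adjusted p = 4.32e-05), and rose by 3.31 ± 0.16 (edgeR adjusted p = 2.58e-12) in vehicle. Its lower level in add-back against control (-0.57 ± 0.22, edgeR adjusted p = 0.0411) was lost with the offsets and without either of control replicates 1 (-0.46, edgeR adjusted p = 0.158) and 2 (-0.57, edgeR adjusted p = 0.0795) or of add-back replicates 1 (-0.52, edgeR adjusted p = 0.107) and 3 (-0.49, edgeR adjusted p = 0.13).

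GBP2 (chr1:89106132-89150456), another of the family, had 0.985, 0.643 and 0.821 CPM in control, 2.56, 1.52 and 1.47 in knockout, 0.841, 0.994 and 1.15 in add-back, 10.8, 12.6 and 13.6 in vehicle and 9.85, 11.9 and 13.03 in LY500307 libraries. The vehicle and LY500307 libraries stood far from the rest, and vehicle against add-back gave the largest change of the 43 members tested, 3.62 ± 0.19 (edgeR adjusted p = 1.44e-11). It rose in knockout by 1.17 ± 0.29 (edgeR adjusted p = 0.00281). Its lower level in add-back against knockout, -0.88 ± 0.27 (edgeR adjusted p = 0.0276), was lost without knockout replicate 1 (-0.57, edgeR adjusted p = 0.206), add-back replicate 1 (-0.76, edgeR adjusted p = 0.0935) or add-back replicate 2 (-0.87, edgeR adjusted p = 0.0817). MX1 (chr21:41420304-41459214), a GTPase that traps viral capsids, stood at 12.05, 14.6 and 12.7 CPM in control, 30.2, 31.5 and 29.9 in knockout, 24.1, 26.4 and 25.6 in add-back, 56.6, 42.7 and 50.1 in vehicle and 43.6, 54.1 and 59.8 in LY500307 libraries. Knockout and add-back were both above control, and vehicle above those. MX1 rose by 1.22 ± 0.13 (edgeR adjusted p = 2.26e-07) in knockout and 0.97 ± 0.10 (edgeR adjusted p = 2.99e-07) in vehicle, and differed by -0.27 ± 0.11 (edgeR adjusted p = 0.11) between add-back and knockout. MX2 was called in no comparison.

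Of the membrane genes, IFITM3 (chr11:319669-327537), which blocks viral fusion, rose by 1.497 ± 0.09 (edgeR adjusted p = 6.97e-11) in knockout, was lower in add-back, at -0.60 ± 0.08 (edgeR adjusted p = 1.79e-05), and was not called in vehicle (-0.16). Its 27 nearest tested neighbours had a median of 0.61 in knockout against control. The part of this stretch of chromosome in the result was not tested. IFI6 rose by 1.04 in knockout and 0.90 in vehicle. BST2 (tetherin), which holds budding viruses at the cell surface, was 85.8, 89.9 and 81.4 CPM in control and 119, 118 and 123 in knockout, a rise of 0.49 ± 0.04 (edgeR adjusted p = 1.16e-08). It was 115, 109 and 117 CPM in vehicle and 126, 125 and 127 with LY500307, a rise of 0.15 ± 0.04 (edgeR adjusted p = 0.0258) that the offsets reduced to 0.05 (adjusted p = 0.701). That call was also lost without vehicle replicate 1 (0.17, edgeR adjusted p = 0.0666) or 2 (0.13, edgeR adjusted p = 0.132), or LY500307 replicate 1 (0.16, edgeR adjusted p = 0.0634) or 2 (0.17, edgeR adjusted p = 0.059). IFI27 was called in no comparison.

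LGALS3BP (chr17:78971238-78980109), a secreted glycoprotein, had 122, 137 and 123 CPM in control, 269, 292 and 292 in knockout, 142, 152 and 148 in add-back, 116, 119 and 132 in vehicle and 158, 155 and 151 in LY500307 libraries. The knockout libraries stood alone at the top. It rose by 1.16 ± 0.05 (edgeR adjusted p = 1.62e-12) in knockout, was lower in add-back, at -0.95 ± 0.05 (edgeR adjusted p = 1.41e-10), and rose by 0.34 ± 0.05 (edgeR adjusted p = 0.00117) with LY500307. In add-back against control the direction depended on the offsets, 0.21 without them and -0.17 with them, and likewise in vehicle against add-back, -0.27 and 0.09. Within its counts, the share of a transcript marked for nonsense-mediated decay was 25.6%, 7.16% and 31.6% in control libraries and 2.11%, 0.450% and 1.38% in knockout.

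SAMD9 (chr7:93099513-93118023), which restricts poxviruses, went opposite ways: 25.5, 25.002 and 24.4 CPM in control, 15.2, 14.8 and 15.003 in knockout, 17.1, 18.7 and 17.95 in add-back, 52.4, 49.4 and 49.1 in vehicle and 41.6, 44.9 and 51.4 in LY500307 libraries. It was lower in knockout than in control (-0.73 ± 0.08, edgeR adjusted p = 2.75e-07), and no library of the first overlapped the second. It rose in vehicle by 1.49 ± 0.07 (edgeR adjusted p = 1.19e-12). Its rise in add-back against knockout, 0.26 ± 0.08 (edgeR adjusted p = 0.0297), was lost under upper-quartile scaling (0.23, adjusted p = 0.0586) and without knockout replicate 2 (0.27, edgeR adjusted p = 0.0574), knockout replicate 3 (0.27, edgeR adjusted p = 0.0571) or add-back replicate 2 (0.24, edgeR adjusted p = 0.0889). SAMD9L, its neighbour, was at 6.79, 7.403 and 6.39 CPM in add-back and 35.1, 29.4 and 30.2 in vehicle, a rise of 2.20 ± 0.10 (edgeR adjusted p = 8.02e-13), and was not called in the knockout (-0.15).

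RSAD2 (viperin, chr2:6865806-6898239), which makes a chain-terminating nucleotide, read 0.909, 1.07 and 1.45 CPM in control, 4.28, 3.27 and 3.61 in knockout, 2.65, 2.27 and 2.36 in add-back, 7.71, 6.67 and 7.29 in vehicle and 5.15, 6.76 and 6.28 in LY500307 libraries. Every knockout library lay above every control one. RSAD2 rose by 1.68 ± 0.20 (edgeR adjusted p = 1.43e-06) in knockout and 1.57 ± 0.16 (edgeR adjusted p = 9.35e-08) in vehicle, and was lower in add-back against knockout, at -0.62 ± 0.17 (edgeR adjusted p = 0.0153). That last call was lost without knockout replicate 1 (-0.50, edgeR adjusted p = 0.088), add-back replicate 2 (-0.55, edgeR adjusted p = 0.0698) or add-back replicate 3 (-0.59, edgeR adjusted p = 0.0518). CMPK2, the nucleotide kinase beside it, rose by 1.26 in knockout and 0.69 in vehicle, and the genes share 14 exon bases on opposite strands.

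IFI44 and IFI44L rose in vehicle, by 3.22 and 2.60. IFI44 had 2, 5 and 2 counts in add-back and 29, 26 and 30 in vehicle, and IFI44L 3, 3 and 10 against 42, 26 and 29. No untreated library held more than 7 counts of IFI44, so it passed the filter only through vehicle and LY500307 libraries. The knockout rises of IFI44 and IFI44L, 1.81 and 1.76, rested on few counts. IFI44 had 2, 1 and 1 in control and 7, 5 and 3 in knockout, and IFI44L 5, 3 and 1 against 10, 7 and 15. Both calls were lost when control replicate 2 (1.67, edgeR adjusted p = 0.116 and 1.78, edgeR adjusted p = 0.081), control replicate 3 (1.58, edgeR adjusted p = 0.142 and 1.29, edgeR adjusted p = 0.162) or knockout replicate 1 (1.48, edgeR adjusted p = 0.163 and 1.79, edgeR adjusted p = 0.0606) was left out, and IFI44 also without control replicate 1 (2.24, edgeR adjusted p = 0.0509) or knockout replicate 2 (1.75, edgeR adjusted p = 0.0954), IFI44L also without knockout replicate 3 (1.54, edgeR adjusted p = 0.129). DESeq2 did not call IFI44 (adjusted p = 0.106). ISG20 and IFI35 rose in knockout by 0.37 and 0.49, and both calls were lost with the offsets (0.22 and 0.27) and under DESeq2 (adjusted p = 0.122 and 0.0622). Leaving out control replicates 1 (0.27, edgeR adjusted p = 0.155) or 2 (0.40, edgeR adjusted p = 0.051) or knockout replicates 2 (0.37, edgeR adjusted p = 0.0736) or 3 (0.31, edgeR adjusted p = 0.135) also ended the ISG20 call, and control replicate 3 (0.34, edgeR adjusted p = 0.101) or knockout replicate 1 (0.43, edgeR adjusted p = 0.0511) that of IFI35. SP110 (chr2:230167293-230225729), a nuclear body protein, gave 8.56, 9.43 and 9.098 CPM in control and 5.06, 5.78 and 4.72 in knockout, a difference of -0.81 ± 0.12 (edgeR adjusted p = 2.34e-05). Of the 40 tested genes nearest to it, 36 also lay below 0, with a median of -0.57. The part of this region in the result was not tested.

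TRIM31 (chr6:30102897-30113106), a ubiquitin ligase that acts on MAVS, gave 3.79, 3.43 and 5.56 CPM in control, 0.570000, 0.685 and 0.612 in knockout, 2.85, 3.04 and 3.26 in add-back, 1.24, 1.44 and 2.25 in vehicle and 2.83, 3.87 and 3.11 in LY500307 libraries. The knockout libraries were the lowest of all, and vehicle lay under LY500307 without overlap. It was lower in knockout, at -2.77 ± 0.28 (edgeR adjusted p = 1.09e-07), higher in add-back against knockout by 2.28 ± 0.29 (edgeR adjusted p = 1.07e-05), lower in vehicle, at -0.90 ± 0.23 (edgeR adjusted p = 0.00329) and higher with LY500307 by 1.00 ± 0.23 (edgeR adjusted p = 0.013). Control libraries spread from 3.43 to 5.56 CPM, and add-back against control was not called (-0.49 ± 0.20, edgeR adjusted p = 0.056). PARP14 was lower in knockout (-0.37), DTX3L higher (0.13) and PARP9, its partner, not called (-0.13), with PARP9 higher (0.22 ± 0.05) and DTX3L lower (-0.13 ± 0.04) in add-back against knockout. The DTX3L call in the latter was lost with the offsets (-0.09), without the filter on low counts and without knockout replicates 1 or 2 or add-back replicates 1 or 3 (edgeR adjusted p = 0.0758 to 0.124). PARP9 itself gave 73.03, 81.1 and 75.4 CPM in control, 71.4, 68.2 and 69.8 in knockout, 81.3, 84.1 and 78.6 in add-back, 82.9, 81.9 and 78.7 in vehicle and 71.2, 74.9 and 83.1 in LY500307 libraries. Its knockout libraries lay under all of those in control, add-back and vehicle. PARP9 and DTX3L share 217 exon bases on opposite strands.

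The 4 genes under the count filter were tested without it. XAF1, a pro-apoptotic inducer, had 0, 0 and 1 counts in control and 8, 4 and 5 in knockout (adjusted p = 0.0017). IFITM1 gave 1, 1 and 3 against 7, 7 and 7 (adjusted p = 0.0134), and EPSTI1 4, 4 and 5 against 1, 1 and 0 (adjusted p = 0.023). TRIM22 was not called there. In vehicle against add-back, IFITM1 (14, 8 and 10 counts against 1, 4 and 2, adjusted p = 0.0012), XAF1 (14, 0 and 0 against 1, 1 and 0, adjusted p = 0.0232) and TRIM22 (12, 8 and 11 against 8, 1 and 3, adjusted p = 0.0451) passed. The XAF1 vehicle value rests on replicate 1.

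**Figure D4:**
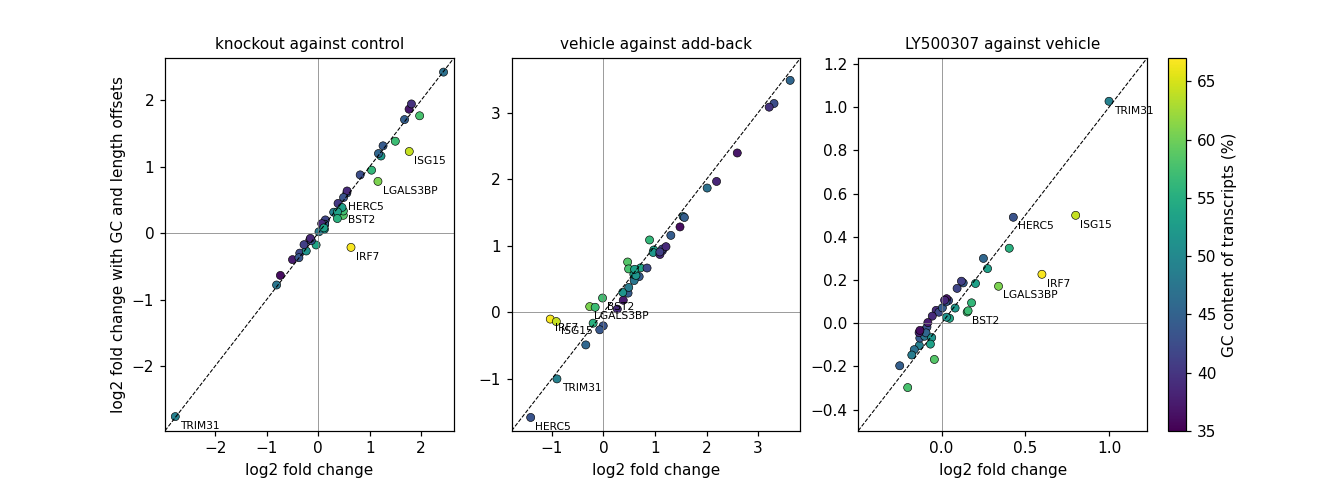
Log2 fold changes of the members without (x axis) and with (y axis) offsets for GC content and length in 3 comparisons, coloured by the GC percentage of the transcripts; the dashed line marks equal values. ISG15 and IRF7, the GC-richest, lie farthest from the line, at 0.80 and 0.50 for ISG15 with LY500307.

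GC content moved with the differences across all genes. In knockout against control the median log2 fold change went from -0.14 in the 3818 GC-poorest genes to 0.38 in the 3819 GC-richest. In vehicle against add-back it went from 0.16 to -0.42, and in LY500307 against vehicle from -0.09 to 0.19. With the offsets, LY500307 against vehicle called 3 of the 43 members (LGALS3BP, HERC6 and TRIM31), or 6.98%, against 262 (1.34%) of all 19516 genes. In the knockout 20 members were higher and 7 lower (62.8%, against 42% of all genes, of whose calls 40% were higher). In vehicle 28 were higher and 5 lower (76.7%, against 42.4% of all genes, of whose calls 49.1% were higher). The offsets also gave calls that the fit without them did not: OAS3 was lower (-0.18) and IFIT3 higher (0.60) in the knockout, EIF2AK2 (0.16) and PARP9 (0.14) were higher in add-back against control, and in vehicle DHX58 (0.65) and BST2 (0.21) were higher while PARP9 (-0.20) and PARP14 (-0.26) were lower.

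Genes for the interferons themselves were low. Of 10 interferon ligand genes only IFNE passed the filter, at 3.44 ± 0.50 CPM (SD, n = 3) in control, and the ligands' summed level was 0.908 to 4.72 CPM over all libraries. The 6 receptor genes were expressed. None was higher in the knockout and 1, IFNGR1, was lower (16.7% of the list, against 46% of all genes) at -0.25 ± 0.08 (edgeR adjusted p = 0.0121), a call lost with the offsets (-0.14) and without control replicate 3 (-0.20, edgeR adjusted p = 0.0758) or knockout replicate 1 (-0.21, edgeR adjusted p = 0.0578). In vehicle 3 of the 6 were higher, a share of 50% that is near the 48.1% of all genes: IFNGR2 by 0.85 ± 0.04, IFNAR2 by 0.61 ± 0.07 and IFNAR1 by 0.39 ± 0.03.

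IRF1, a transcription factor that interferon gamma induces, stood at 16.4, 17.001 and 17.4 CPM in control, 25.6, 26.03 and 23.6 in knockout, 15.9, 17.3 and 17.6 in add-back, 17.1, 17.4 and 17.1 in vehicle and 18.2, 17.8 and 16.3 in LY500307 libraries. Knockout libraries alone were high, a rise of 0.57 ± 0.07 (edgeR adjusted p = 7.86e-07) and a fall on add-back (-0.56 ± 0.06, edgeR adjusted p = 3.14e-06). Its levels in the other 4 groups overlapped. TYK2 rose in knockout by 0.43 ± 0.08 but by 0.0026 with the offsets, and JAK1 and JAK2 rose in vehicle by 0.28 ± 0.04 and 0.47 ± 0.14, while TYK2 was lower there, at -0.52 ± 0.08 (edgeR adjusted p = 1.77e-05). The JAK2 call was lost with the offsets (0.25) and without add-back replicate 1 (0.37, edgeR adjusted p = 0.0605) or vehicle replicate 1 (0.33, edgeR adjusted p = 0.0861).

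Of 33 tested genes on a list of further interferon-induced genes, 14 were higher and 8 lower in the knockout (66.7%, against 46% of all genes) and 2 and 12 in add-back against knockout (42.4%, against 19.6%). In vehicle 20 were higher and 7 lower (81.8%, against 48.1%), and with LY500307 1 was higher and 0 lower (3.03%, under the 7.12% of all genes). GBP3, a relative of GBP1, rose by 0.94 ± 0.08 in knockout, was lower in add-back, at -0.82, and rose by 1.65 ± 0.07 in vehicle. TNFSF10 (TRAIL), a death ligand, rose by 1.68 ± 0.13 in knockout. TAP1, the peptide transporter of antigen presentation, was lower in add-back against knockout, at -0.58, and B2M, the light chain of class I molecules, rose by 0.93 ± 0.05 in vehicle. Among 10 regulators, which also held the ISG15-conjugating enzymes UBA7 and UBE2L6, 5 were higher and 3 lower in the knockout (80%, against 46% of all genes). CISH, a suppressor of cytokine signalling through STAT5, was 0.227, 0.572 and 0.632 CPM in control, 5.91, 5.48 and 5.69 in knockout, 1.44, 1.49 and 1.23 in vehicle and 4.24, 5.74 and 5.69 with LY500307, rises of 3.53 ± 0.24 (edgeR adjusted p = 5.86e-10) and 1.90 ± 0.19 (edgeR adjusted p = 8.03e-06). Its add-back mean of 3.24 CPM was above control (2.71 ± 0.26, edgeR adjusted p = 8.46e-08) and below knockout (-0.81 ± 0.17, edgeR adjusted p = 0.00149). Vehicle lay below add-back (-1.21 ± 0.20, edgeR adjusted p = 6.11e-05). Among 11 tested genes of nucleic acid sensing, 5 were higher and 1 lower in the knockout (54.5%, near the 46% of all genes), where STING1 and TICAM1 rose by 0.89 ± 0.10 and 0.91 ± 0.12. In vehicle 6 were higher and 2 lower (72.7%, against 48.1%), where TLR3 rose by 1.29 ± 0.17 and TICAM1 changed by -1.17.

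Per length, so that genes can be compared (counts per length, rescaled to the same total in every library, as TPM), and among members most of whose counts fell on transcripts with an annotated length, BST2 and LGALS3BP were the most abundant at 136.8 and 92.0 in control and 203.1 and 217.6 in knockout. DTX3L (42.6), EIF2AK2 (36.3), PARP14 (36.1) and IFITM3 (25.2) followed in control, and IFI44 (0.118) and IFI44L (0.0795) were among the lowest. In vehicle GBP1 reached 16.4 and IFI44 2.23. The classical markers ISG15 (5.59) and IFIT1 (3.25) were low in control next to BST2.

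Against vehicle, LY500307 left 38 of the 43 members without a call. For members such as MX1 (0.08 ± 0.10), OAS1 (-0.13 ± 0.07), GBP1 (0.04 ± 0.11) and IFIT1 (0.12 ± 0.19) no difference was called, which does not show that the levels were equal. IFNGR2 was lower at -0.16 ± 0.04 (edgeR adjusted p = 0.0219), a call lost when vehicle replicate 1 (-0.16, edgeR adjusted p = 0.0621) or 2 (-0.13, edgeR adjusted p = 0.182) or LY500307 replicate 1 (-0.12, edgeR adjusted p = 0.145), 2 (-0.17, edgeR adjusted p = 0.0505) or 3 (-0.15, edgeR adjusted p = 0.0643) was left out.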

How the data were processed

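Libraries were made from total RNA depleted of ribosomal RNA with a stranded Illumina kit, per the labels' protocols. The authors deposited expected counts per gene and per transcript; FastQC, Trim Galore, GSNAP, RSEM and the build GRCh38 are named in the submitters' processing notes, and the annotation release and the use of strand in counting are not given in the sources used here. Expected counts were rounded to whole numbers. Genes were kept by edgeR's filterByExpr, scaled by TMM and tested with edgeR 4.0.16 (glmQLFit, glmQLFTest; R 4.3.3) in 1 model of 5 group means with 10 residual degrees of freedom, which pools the spread (biological coefficient of variation 4.99%). Benjamini-Hochberg adjustment ran over all genes tested. Scripts were tested on simulated data.

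The members and lists were chosen with earlier results of these data known. Per-library values were printed, in each comparison, for up to 4 largest rises and 4 largest falls among called members with a mean of at least 1 CPM, and always for STAT2, IRF9, IRF7, ISG15, IFIT1, MX1, OAS1 and USP18; other called members were given by fold change. From the pathway lists IRF1, receptors, JAK genes and up to 3 called genes a list with the smallest p were eligible. BST2 and PARP9 values, the counts of genes under the filter, and some other values were added for context after they were seen. A result withheld for evaluation is not reported here.

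Positions, lengths and GC content came from GENCODE 29 (GRCh38), which held 58396 of the 60664 identifiers; symbols were found for 60463. Promoter sequences are from RefSeq (GRCh38.p14). Alternatives were other scaling factors (RLE, upper quartile), DESeq2 1.42.0, no filter or a stricter one, a fit of only the groups compared, offsets for each library's trend on GC content and length, a block for replicate number, and each library left out in turn. Replicates of a group differed by more than sampling noise (chi-square per degree of freedom 2.15 to 5.43).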

Additional observations from a re-analysis of the deposited data

How the results depend on the processing

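Of the members called, 21 of 29 kept their call under all 15 alternatives in knockout against control, 7 of 15 in add-back against knockout, 17 of 25 in add-back against control, 28 of 34 in vehicle against add-back and 2 of 5 in LY500307 against vehicle. Add-back against knockout gave 3 higher members with upper-quartile factors; leaving out 1 library gave 3 to 6 higher (3 without knockout replicate 3) and 4 to 12 lower (4 without knockout replicate 1, 6 without add-back replicate 1 or 3). LY500307 against vehicle gave 3 members, all higher, and 2 pathway genes with GC and length offsets, with or without the replicate block; leaving out 1 library gave 3 to 6 members higher (3 without vehicle replicate 1 or 2 or LY500307 replicate 2), 0 to 1 lower, and 2 to 7 pathway genes. Across all genes that comparison called 1389 genes, 262 with the offsets and 299 to 1844 with 1 library left out (403 and 299 without vehicle replicates 1 and 2, 586 and 487 without LY500307 replicates 1 and 2). The higher share of all calls in knockout against control was 50.8%, or 40% under the offsets. For add-back against knockout it was 53.1%, 64.7% under the offsets, 42% with upper-quartile factors and 64.1% under DESeq2.

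With the offsets the sign turned for IRF7 in knockout against control (-0.21, and -0.22 with the replicate block) and in add-back against control (-0.036 and -0.027), for LGALS3BP in add-back against control (-0.17 and -0.17) and in vehicle against add-back (0.0864 and 0.0865), and for BST2 (0.21 and 0.21), PIAS1 (-0.0799 and -0.0799) and PTPN11 (-0.0864 and -0.0861) in vehicle against add-back. The cause was not tested. The replicate block alone left 28, 14, 26, 5 and 35 members called in the order knockout, add-back against knockout, add-back against control, LY500307 and vehicle. Deviations of same-numbered libraries from their group means had correlations from -0.191 to 0.174, with 2 of 30 over 0.1. Those of differently numbered libraries ran from -0.18 to 0.183, with 10 of 60 over 0.1. No pairing by number was seen, which cannot show whether libraries shared a culture or preparation. Low counts limit IFI44, IFI44L, OAS2 in control and the 4 genes under the filter.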

Other observations

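Transcript shares within member genes varied between replicates. SAMD9 counts went to SAMD9-203 at 0%, 0% and 0% in control and at 91.4%, 0% and 47.1% in knockout libraries, a spread within knockout as large as any between groups. The main MX1 transcript, MX1-202, held 47.6%, 48.96% and 36.4% of MX1 counts in control and 59.4%, 63.4% and 55.4% in vehicle. LGALS3BP-207, the transcript marked for nonsense-mediated decay, held 29.9%, 28.7% and 4.396% of LGALS3BP counts in vehicle and 2.73%, 1.84% and 0.0004% with LY500307. USP18 counts went to USP18-201 alone in every library. No test was run on these shares.

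The interferon gene IFNE, which epithelia express without infection, was measured at 3.03, 4.0003 and 3.29 CPM in control and 2.07, 2.21 and 1.85 in add-back, where it was lower (-0.74 ± 0.23, edgeR adjusted p = 0.0113). That call was lost without control replicate 2 (-0.61, edgeR adjusted p = 0.0614) and with the GC and length offsets (-0.55, edgeR adjusted p = 0.0529). PSMB9, a subunit of the immunoproteasome, was at 8.84, 8.45 and 9.49 CPM in knockout and 4.92, 6.24 and 6.52 in add-back libraries, without overlap. In counts, control libraries had 133, 144 and 143 and knockout libraries 124, 111 and 155. Depth differed between these libraries, so the counts are not on the scale of the CPM values and do not compare control with knockout. PSMB9 was looked at after its values were seen.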
